A study of Mus musculus with 6 samples.

Results

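Integrins are cell surface receptors made of an alpha and a beta chain that tie cells to the extracellular matrix. A set of 10 integrin chains of receptors for collagen, fibronectin, laminin or ligands with an RGD motif was followed here. These were Itga1, Itga2, Itga11, Itga3, Itga5, Itga8, Itgav, Itgb1, Itgb5 and Itgb6. They were compared between tumor-initiating cells (TICs) and other cells of mouse mammary tumors. They were chosen by gene symbol among 41388 Ensembl genes, and 9 of them were abundant enough to be tested among 12192 genes. Itga2 was the chain left out.

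In the mammary gland, epithelial cells use integrins to hold on to the basement membrane, while fibroblasts, pericytes and endothelial cells carry sets of their own. The beta chain fixes the cytoplasmic link to talin and kindlin, and the alpha chain largely decides the ligand. Chains alpha1, alpha2 and alpha11 pair only with beta1 and bind collagens, alpha5 and alpha8 pair with beta1 and bind fibronectin or nephronectin through RGD, and alphav pairs with several beta chains.

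All cells came from mammary tumors of FVB/N-TgN(MMTVPyVT)634Mul/J mice, in which the polyoma middle T antigen is expressed from the mouse mammary tumor virus (MMTV) promoter. TICs were CD24+CD90+CD45- cells from 12-week-old females, and the comparison cells were live CD45- cells outside the CD24+CD90+ gate, called other tumor cells here; the series description names them CD24-CD90-, whereas the methods also admit cells positive for 1 of the markers. RNA-seq was made from 3 samples per group, each a pool of 4 sorts, with 12 mice in all for the 3 pools of a group. No further treatment was applied to either group, and both carry the transgene.

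Total counts per sample ranged from 6781239 to 9100552, at which 3 counts, taken as the floor of detection, correspond to 0.33 to 0.438 CPM (counts scaled to the library size with TMM factors). This floor covers counting error only. Of the sort markers, Cd24a averaged 370 ± 63.6 CPM in TICs and 470 ± 115 CPM in other tumor cells (SD, n = 3), and Thy1, which encodes CD90, 123 ± 73.7 against 51.4 ± 27.5 CPM, with overlapping groups for both. Ptprc, which encodes CD45, had 33 counts in a single sample of other tumor cells and 0 in the other 5 samples. Luminal epithelial markers were present in every sample, with a summed level of 5929 to 6289 CPM in other tumor cells and 3910 to 4618 CPM in TICs over 8 genes. In bulk samples such as these, fewer cells of a type and less RNA per cell cannot be told apart.

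With edgeR's exactTest and a threshold of 0.1 for the Benjamini-Hochberg adjusted p, 0 of the 9 integrin chains tested were called, where 1.55% of all genes tested were called, 1.36% as higher and 0.189% as lower in TICs. At an unadjusted p below 0.05 there were 2 of them, Itga1 and Itga11, where 7.85% of all genes lay below that value. The quasi-likelihood test of edgeR called 0 chains and 0.41% of all genes, and DESeq2 called 1 chain, Itga11, as higher in TICs beside 1.95% of all genes. Log2 fold changes of TICs over other tumor cells were positive for 7 chains and negative for 2, with a median of 0.26 beside a median of -0.006 over all genes tested. In 2 chains, Itga1 and Itga11, every TIC sample lay above every sample of other tumor cells, a separation in this direction that 7.69% of all genes tested showed. The remaining 7 chains overlapped between the groups.

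**Figure D1:**
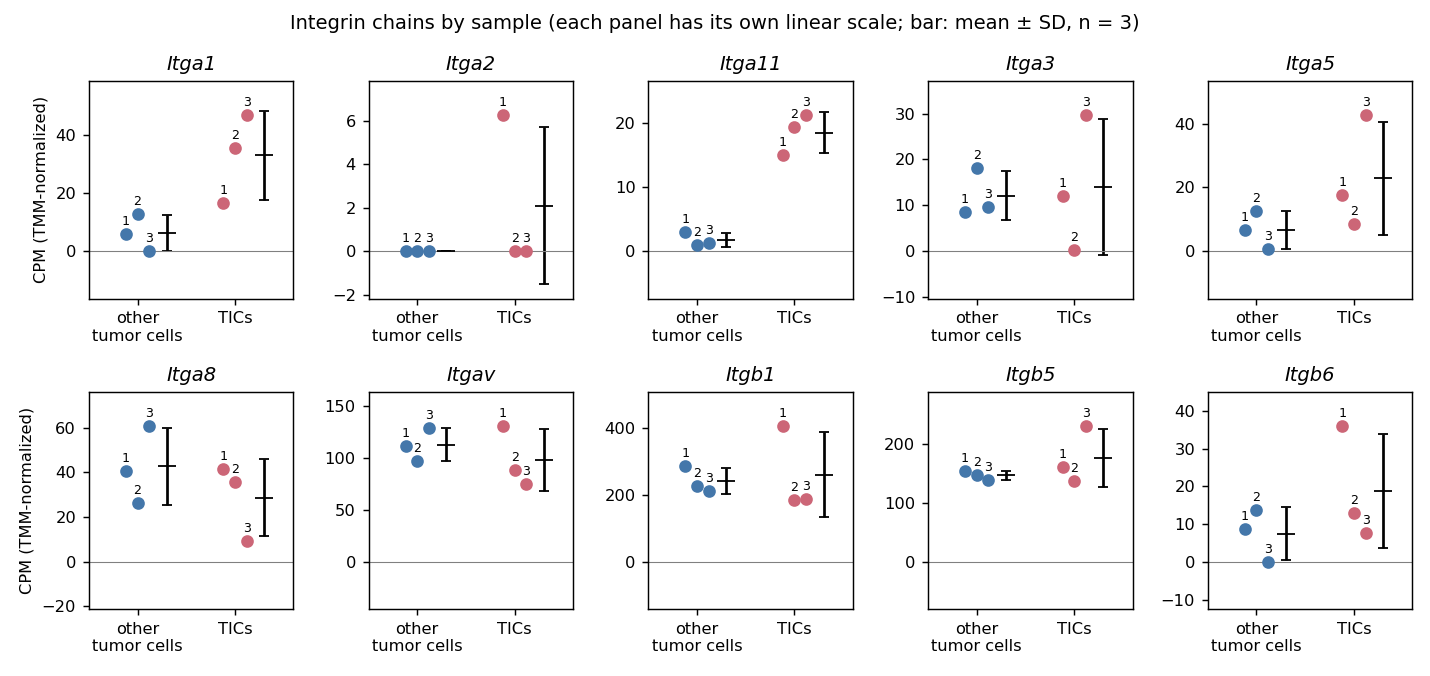
TMM-normalized CPM of the 10 integrin chains in each sample of other tumor cells (blue) and TICs (red), with replicate numbers beside the points and the mean ± SD (n = 3) as a black bar. Each panel has its own linear scale. Itga1 and Itga11 are the chains in which the groups are apart, and Itga2 has a value above 0 in TIC replicate 1 alone.

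The collagen receptor chain Itga11, known from fibroblasts and other mesenchymal cells, had the largest fold change of the 9 chains tested. Its levels were 2.92, 0.908 and 1.29 CPM in other tumor cells replicates 1 to 3 and 15.0, 19.4 and 21.2 CPM in TICs replicates 1 to 3. The corresponding raw counts were 20, 8 and 9 against 136, 166 and 161. All TIC samples were thus several times above all samples of other tumor cells, and they differed little among themselves, with a coefficient of variation of 17.5%. On the log2 scale TICs were higher by 3.43 (standard error, SE, 1.12, with a 95% interval of 1.24 to 5.63), a 10.8-fold difference. Its adjusted p was 0.24 in edgeR's exactTest, so that it did not pass the threshold. DESeq2 gave an adjusted p of 0.026, the smallest of the settings tried, where the others ranged from 0.22 to 0.73. In simulated counts both DESeq2 and exactTest made false calls more often than the threshold allows. Those counts were drawn with the dispersions of the exactTest fit, so that they cannot rank the tests.

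Itga1, whose product binds collagens on smooth muscle, endothelial and other mesenchymal cells, followed in size. It was measured at 5.84, 12.6 and 0.143 CPM in other tumor cells and at 16.6, 35.3 and 46.8 CPM in TICs. The highest sample of other tumor cells, replicate 2, lay close to the lowest TIC sample, replicate 1. TICs were thus higher by 2.4 in log2 terms (SE 1.02, 95% interval 0.40 to 4.41), and the adjusted p was 0.50 in exactTest. Without replicate 3 of other tumor cells, which held 1 count of Itga1, the log2 fold change was 1.84.

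The third collagen receptor chain of the set, Itga2, is typical of epithelial cells and platelets. It had 57 counts in TIC replicate 1, which is 6.27 CPM, and 0 counts in the other 5 samples, where 3 counts would be 0.34 to 0.438 CPM. No fold change is given for it, because the other TIC samples had no count either.

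Itga11 lies on chromosome 9 of GRCm38 (62677826 to 62783982, plus strand), Itga1 on chromosome 13 (114953096 to 115101964, minus strand) and Itga2 beside it on the same chromosome (114833081 to 114932100, minus strand). Exons of Itga11 and Itga2 overlap no other annotated gene, while 3.68% of the exon bases of Itga1 also belong to the predicted gene Gm49395. The sequences upstream of Itga11 and Itga1 are shown because these are the chains whose groups stood apart in the same direction. They are taken from RefSeq (GRCm38.p6), end before the first annotated exon, run 5′ to 3′ along the gene and carry CG dinucleotides in capitals.
Itga11, chr9:62677605-62677825, plus strand: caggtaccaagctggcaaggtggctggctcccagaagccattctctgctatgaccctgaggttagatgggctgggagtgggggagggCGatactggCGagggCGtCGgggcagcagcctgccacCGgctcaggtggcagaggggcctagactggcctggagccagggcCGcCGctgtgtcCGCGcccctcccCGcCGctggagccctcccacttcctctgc
Itga1, chr13:115101965-115102214, minus strand: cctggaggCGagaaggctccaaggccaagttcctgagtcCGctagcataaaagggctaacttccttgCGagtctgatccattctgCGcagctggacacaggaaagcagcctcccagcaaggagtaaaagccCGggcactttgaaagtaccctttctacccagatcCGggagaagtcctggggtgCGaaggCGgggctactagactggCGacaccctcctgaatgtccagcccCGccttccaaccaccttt

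The Itga11 stretch holds 11 CG dinucleotides in 221 bases and that of Itga1 10 in 250 bases. Over the whole windows, from 250 bases before to 50 after the RefSeq start, Itga11 held 16 and Itga1 12, beside a median of 7 over 32851 windows of 300 bases. Windows of the other chains held 27 in Itgb1, 24 in Itgav, 23 in Itga8 and 20 in Itgb5. Itga2 and Itga5 held 13 each, Itga3 24 and 5 in its windows, and Itgb6 12 and 3. The letters GGGCGG, searched on both strands, occurred in neither the Itga11 nor the Itga1 window. They occurred in 7 of the 12 windows of the 10 chains and in 35.7% of all windows. The 7 were the windows of Itgb1, Itgb5, Itgav, Itga5 and Itga2 and both windows of Itga3. The letters TATAAA, also on both strands, were in 0 of the 12 windows and in 13.6% of all. These are descriptions of letters in a window and say nothing of the factors that bind there.

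Among Itga5, Itga8 and Itgav, the RGD-binding alpha chains described here, Itga5, the alpha chain of the classical fibronectin receptor, had the widest spread between TIC samples relative to its mean. It was measured at 6.57, 12.5 and 0.572 CPM in other tumor cells and at 17.5, 8.39 and 42.7 CPM in TICs. TIC replicate 2 lay below replicate 2 of other tumor cells, so that the groups overlapped. This gave a log2 difference of 1.80 (SE 1.08, 95% interval -0.32 to 3.93, adjusted p = 0.87 in exactTest), and it was 1.0 without TIC replicate 3. That sample also had the highest summed level of 8 endothelial markers, 726 CPM, where the other TIC samples had 218 and 344 CPM. Whether these endothelial transcripts have a part in the Itga5 value was not tested. Itga5 lies on chromosome 15 (103344286 to 103366763, minus strand).

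Itga8, a receptor chain for nephronectin and fibronectin found on mesenchymal and smooth muscle cells, had a fold change in the other direction. It stood at 40.9, 26.3 and 60.9 CPM in other tumor cells and at 41.4, 35.8 and 9.10 CPM in TICs. TIC replicates 1 and 2 were within the range of other tumor cells, and replicate 3 was below it. TICs against other tumor cells gave a log2 fold change of -0.57 (SE 0.63, 95% interval -1.80 to 0.66, adjusted p = 1 in exactTest), and -0.13 without TIC replicate 3. Of the exon bases of Itga8 on chromosome 2 (12106632 to 12301922), 5.05% are shared with a gene on the other strand, and the strand setting of the counting is not given in the sources used here.

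Itgav, the shared alpha chain of the vitronectin receptors and of the integrins that activate latent TGF-beta, had the highest mean level per kilobase among the 7 alpha chains described here in both groups. Its levels were 112, 97.1 and 129 CPM in other tumor cells and 131, 88.4 and 74.5 CPM in TICs. For this gene the log2 fold change was -0.20 (SE 0.34, adjusted p = 1 in exactTest), with a 95% interval of the fold from 0.545 to 1.39. The gene lies on chromosome 2 (83724397 to 83806916), and 5.9% of its exon bases are shared with a gene on the other strand.

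Itga3, whose product joins beta1 to bind laminins of the epithelial basement membrane, varied most between TIC samples relative to its mean among the 9 chains tested. It had 8.61, 18.2 and 9.58 CPM in other tumor cells and 12, 0.233 and 29.7 CPM in TICs. TIC replicate 2 held 2 counts and TIC replicate 3 held 225, and the values of other tumor cells lay between them. The coefficient of variation was 106% in TICs and 43.4% in other tumor cells. The log2 fold change of 0.20 (SE 1.21, 95% interval -2.17 to 2.58, adjusted p = 1 in exactTest) turned to -0.97 without TIC replicate 3. No difference of Itga3 (chromosome 11, 95044474 to 95076801) was detectable at this spread, and the interval allows a large change in either direction.

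The beta chains included the most abundant transcripts of the group. Itgb1, the common partner of the collagen, laminin and fibronectin receptors, was measured at 285, 226 and 211 CPM in other tumor cells and at 406, 185 and 188 CPM in TICs. TIC replicate 1 was the highest of the 6 samples, and TIC replicates 2 and 3 were the lowest. The log2 fold change was 0.11 (SE 0.35, adjusted p = 1 in exactTest), with a 95% interval of the fold from 0.668 to 1.75. Without TIC replicate 1 the log2 fold change was -0.35, so that its sign rested on that sample. Itgb1 lies on chromosome 8 (128685654 to 128733200) and its exons overlap no other gene.

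Itgb5, which pairs with alphav to bind vitronectin, had the smallest coefficient of variation of the 9 tested chains in other tumor cells. It stood there at 154, 148 and 139 CPM, a variation of 5.14%, and at 162, 137 and 231 CPM in TICs. TIC replicates 1 and 3 were above all samples of other tumor cells and TIC replicate 2 was below them. Itgb5 thus had a log2 fold change of 0.26 (SE 0.31, adjusted p = 1 in exactTest), with a 95% interval of the fold from 0.782 to 1.84. The gene is on chromosome 16 (33829665 to 33949338).

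Itgb6, the epithelial partner of alphav, had 8.76, 13.7 and 0 CPM in other tumor cells and 36.1, 12.9 and 7.65 CPM in TICs. TIC replicate 1, the sample that also held the Itga2 counts and the highest Itgb1 level, was the highest. The log2 fold change was 1.33 (SE 1.29, 95% interval -1.19 to 3.85, adjusted p = 1 in exactTest), and 0.48 without TIC replicate 1. The gene lies on chromosome 2 (60598292 to 60722643).

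**Figure D2:**
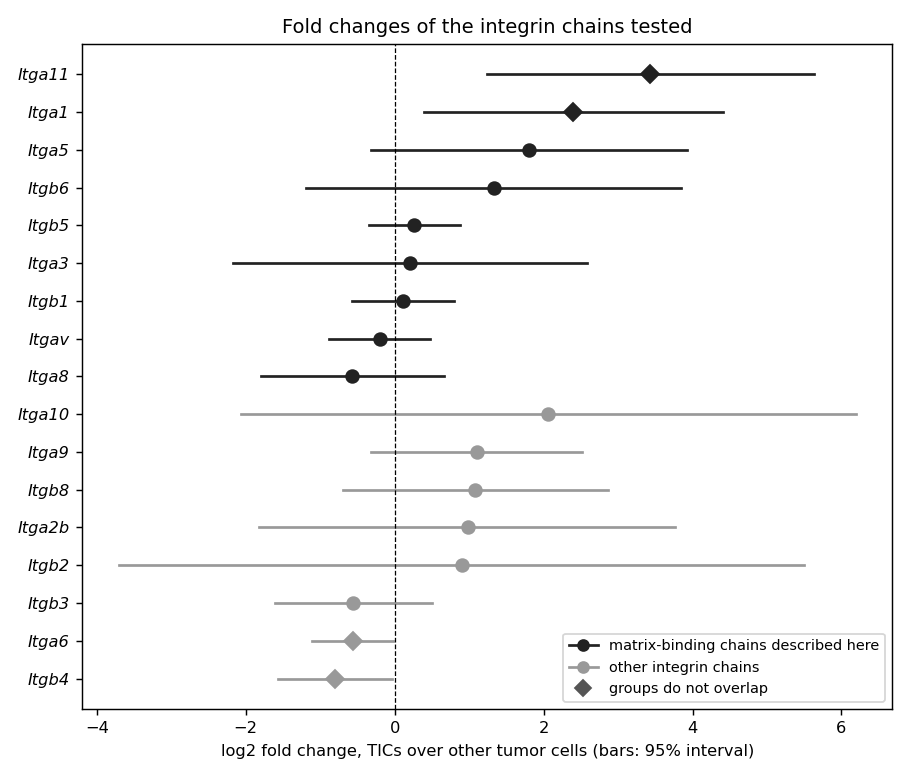
Log2 fold changes of TICs over other tumor cells for the 9 integrin chains tested (black) and 8 further chains of the family (grey), with 95% intervals as bars; diamonds mark genes whose groups do not overlap. Among the 9 chains, intervals are narrowest for Itgb5, Itgav and Itgb1 and widest for Itgb6 and Itga3.

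Levels were compared between chains as CPM per kilobase of exon. In other tumor cells the order began with Itgb1 at 58.9 ± 9.58, Itgb5 at 41.4 ± 2.13, Itgav at 10.5 ± 1.48 and Itga8 at 5.80 ± 2.36 (SD, n = 3). Each of these lay apart from the next, and Itga8 from Itga3 at 2.12 ± 0.92. Below them Itga3, Itga5, Itgb6, Itga1 and Itga11 overlapped with their neighbours. In TICs the order was Itgb1 at 63.6 ± 31.1, Itgb5 at 49.7 ± 13.8, Itgav at 9.12 ± 2.74, Itga5 at 4.64 ± 3.61, Itga8 at 3.91 ± 2.34 and Itga11 at 3.61 ± 0.63, followed by Itgb6, Itga3, Itga1 and Itga2. There the step from Itgb5 to Itgav was apart, as was the step to Itga2 at the end, and all other neighbours overlapped. Itga11 held rank 9 of 10 in other tumor cells and rank 6 in TICs, or rank 7 in TICs when the principal transcript gave the length.

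The makeup of the alpha chains described here was then taken within each sample. Itgav held 52.9%, 47.1% and 53.7% of the summed per-kilobase level of the 7 alpha chains in other tumor cells and 43.3%, 40.1% and 24.2% in TICs. The share of Itga11 was 2.89%, 0.923% and 1.12% in other tumor cells and 10.4%, 18.4% and 14.4% in TICs. For both chains the shares of the groups did not overlap. The shares of a sample add up to a fixed total, so that larger shares of some chains lower the others. The CPM values of Itgav overlapped between the groups. Alpha chains outside the 7 are left out of the sum, among them Itga6 at 356 ± 25.9 CPM in other tumor cells, where Itgav had 113 ± 15.9 CPM (SD, n = 3). Itga5 reached 30.2% in TIC replicate 3 and lay between 0.52% and 13.2% in the remaining samples. The 3 beta chains showed no such order, with Itgb1 at 55.9% to 61% of their sum in other tumor cells and at 41% to 66.3% in TICs. Beta chains outside the 3 are left out of that sum. Itgb4 at 103 ± 5.05 and Itgb3 at 50.1 ± 14.0 CPM in other tumor cells were among them (SD, n = 3). Itgb6 had 7.5 ± 6.95 CPM there.

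**Figure D3:**
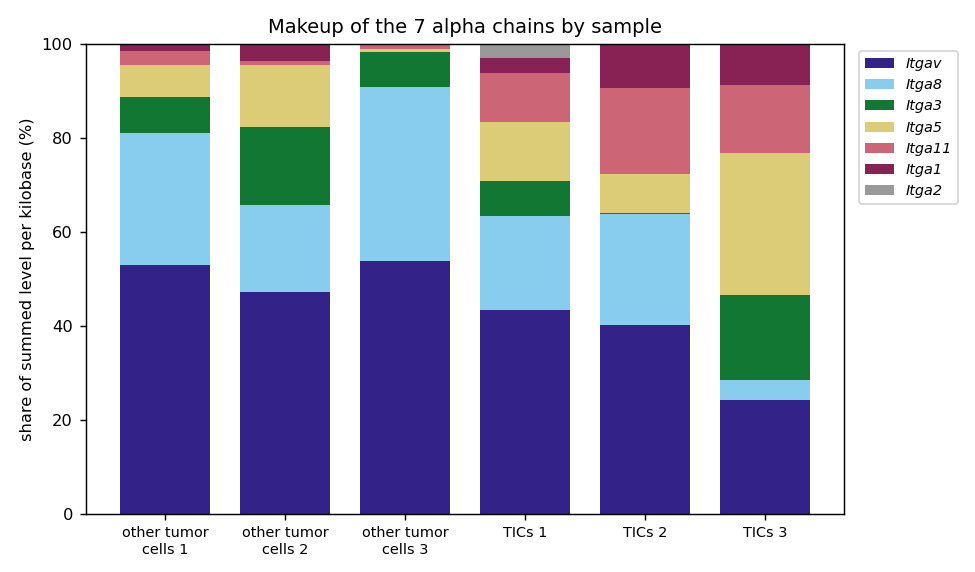
Share of each of the 7 alpha chains in their summed level per kilobase of exon, in percent, for the 6 samples. Itgav is the largest share in every sample except TIC replicate 3, where Itga5 holds 30.2%, and the Itga11 share is larger in all TIC samples.

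Pairs of chains were also compared within a sample, where library scaling has no influence. The log2 ratio of Itga3 to Itga5 counts, a laminin against a fibronectin receptor chain, was 0.38, 0.54 and 3.77 in other tumor cells and -0.54, -4.60 and -0.52 in TICs. It was lower in 3 of 3 TIC samples, by 3.45 on the mean. The exact two-sided permutation test gave p = 0.1, the smallest that 3 samples against 3 allow, and 0.3 after adjustment over the 3 ratios tested. Its largest values in size rest on single low counts, 4 counts of Itga5 in replicate 3 of other tumor cells and 2 counts of Itga3 in TIC replicate 2. The ratio of Itgb6 to Itgb5 differed by 2.34 (exact permutation p = 0.4, adjusted 0.5), and by 0.29 without replicate 3 of other tumor cells, which had no count of Itgb6. The ratio of Itga2 to Itga1 differed by -1.65 (exact permutation p = 0.5, adjusted 0.5). Since Itga2 had 0 counts in 5 of the 6 samples, that ratio reflects there the added count over Itga1 alone, and it says nothing of Itga2.

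The rest of the integrin family held 16 chains, of which 8 were tested and 0 passed the threshold in exactTest, in the quasi-likelihood test or in DESeq2. The 8 tested had a median log2 fold change of 0.94, with 5 positive and 3 negative. Standard errors reached 2.11 for Itga10 and 2.35 for Itgb2. The summed level of the 16 chains was lower in every TIC sample, at 370 to 460 CPM against 531 to 556 CPM. Of these sums Itga6 alone averaged 241 CPM in TICs and 356 CPM in other tumor cells. Some of the 16 chains also bind matrix, so that the set of 10 is not all of the matrix-binding chains. The smallest p-values belonged to Itga6 and Itgb4, which form the laminin receptor of hemidesmosomes in basal epithelium. Itga6 stood at 333, 352 and 384 CPM in other tumor cells and at 216, 259 and 247 CPM in TICs, a log2 fold change of -0.56 (SE 0.28, adjusted p = 0.60 in exactTest). Itgb4 stood at 104, 107 and 97.6 CPM against 61.8, 80.7 and 34.8 CPM, a log2 fold change of -0.80 (SE 0.39, adjusted p = 0.60 in exactTest). In both genes every TIC sample was below every sample of other tumor cells, which held for 7.55% of all genes tested. The luminal marker sums given above separated the groups in the same way, and their part in these values was not tested. Itga9, a tenascin receptor chain, was the next by p, with a log2 fold change of 1.1 (SE 0.72, adjusted p = 0.89 in exactTest). The leukocyte chains Itgal, Itgad and Itgb7 had 0 counts in all 6 samples. Itgb2, also of leukocytes, had 39 counts in replicate 1 of other tumor cells and 86 and 9 in TIC replicates 1 and 3. It had 0 in the others, and its log2 fold change was 0.90 (SE 2.35). Itga4, Itgax and Itgae had 28, 19 and 2 counts in TIC replicate 3 and 0 in the others. Itgam, of myeloid cells, had 63 counts in TIC replicate 1 and 4 in replicate 2, but 68.7% of its exon bases are shared with another annotated gene.

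The ligands of these receptors were listed as well. Of 28 ligand genes, 27 were tested, and 11 passed the threshold in exactTest, all higher in TICs, where 1.36% of all genes tested were called in this direction. The list holds genes that the study had already singled out on these samples, so that the count is not independent evidence of a direction. Called genes were the fibrillar collagens Col1a1, Col1a2, Col3a1 and Col5a1, the basement membrane collagens Col4a1 and Col4a2, the microfibrillar Col6a1, fibronectin (Fn1), tenascin C (Tnc), periostin (Postn) and fibrillin 1 (Fbn1). Fn1, the ligand of alpha5beta1, stood at 620, 1023 and 706 CPM in other tumor cells and at 2186, 2752 and 1759 CPM in TICs, a log2 fold change of 1.51 (SE 0.30, adjusted p = 0.00066 in exactTest). Col1a1, a ligand of the collagen receptors, reached 4718 ± 981 CPM in TICs against 1622 ± 223 CPM (SD, n = 3), which is 1.54 on the log2 scale (adjusted p = 0.00012 in exactTest). The smallest called change was that of Col4a1, at 0.97 (adjusted p = 0.092). Ligands with no call included osteopontin (Spp1, log2 fold change 0.28), nephronectin (Npnt, -0.08), vitronectin (Vtn, 0.28) and Tgfb1 (-0.43), each with an adjusted p of 1 in exactTest. An unadjusted exactTest p below 0.05 was found for 16 of the 27 ligands, where 7.85% of all genes tested lay below that value. The uncalled genes among these were Lamc1 (log2 fold change 1.32), Nid1 (0.98), Lamb1 (0.83), Ccn2 (0.82) and, lower in TICs, Tgfb3 (-0.65). The median log2 fold change was 1.0 for the ligands, 0.26 for the 9 chains and 0.94 for the 8 other integrin chains tested. The summed level of the other integrin chains was nevertheless lower in every TIC sample, as given above. A difference between the lists was not tested.

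Inside the cell, 26 genes whose products act at integrin tails or in adhesions, called adaptors here, were listed. Of these, 22 were tested, with a median log2 fold change of 0.17. In exactTest 1 of them passed, where 1.55% of all genes tested were called. This was Dab2, an endocytic adaptor that binds beta chain tails, with 19.0, 41.3 and 28.0 CPM in other tumor cells and 65.1, 93.5 and 102 CPM in TICs. Its log2 fold change was 1.56 (SE 0.45, adjusted p = 0.065 in exactTest). It passed in DESeq2 (adjusted p = 0.038) and not in the quasi-likelihood test (0.21), and the fits without a single sample gave adjusted p-values from 0.033 without TIC replicate 1 to 0.39 without replicate 1 of other tumor cells. Next by p were Tns1, a tensin at fibrillar adhesions (log2 fold change 0.79, adjusted p = 0.69), and Rsu1, a partner of the ILK complex (0.72, adjusted p = 0.96, both in exactTest). Fermt2, the kindlin of most adherent cells, had a log2 fold change of -0.20 (SE 0.29), Tln1, the main talin, 0.27 (0.36) and the focal adhesion kinase gene Ptk2 0.21 (0.50), each with an adjusted p of 1.

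**Figure D4:**
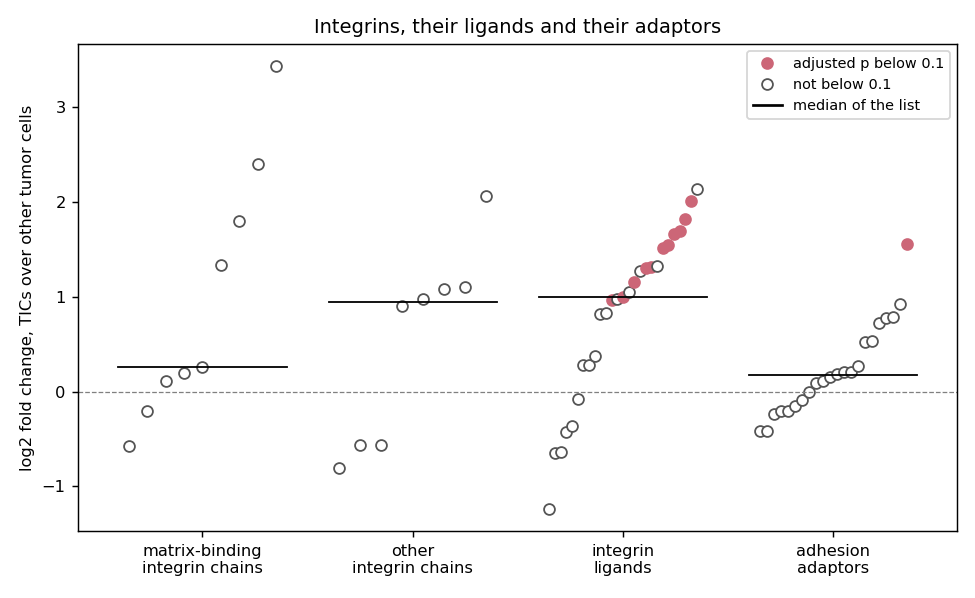
Log2 fold change of TICs over other tumor cells for each tested gene of 4 lists, ordered by value within a list. The lists are the 9 matrix-binding chains described here, 8 other chains of the family, some of which also bind matrix, 27 ligands and 22 adaptors. Filled points have an adjusted p below 0.1 in exactTest and lines are list medians. Filled points occur in the ligands (11) and the adaptors (1).

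Markers of cell types were listed as well, and their sums did not all go in the same direction. Of 8 fibroblast markers, 5 were called higher in TICs (Dcn, Dpt, Fbln1, Mfap5 and Pi16), where 1.36% of all genes tested were called in this direction. The 8 markers summed to 876 to 915 CPM in other tumor cells and 1509 to 2865 CPM in TICs. Of these sums Dcn alone averaged 517 CPM in other tumor cells and 1444 CPM in TICs. Of 9 pericyte or smooth muscle markers 1 was called, Rgs5. The 9 markers summed to 587 to 782 against 1044 to 1610 CPM, of which Rgs5 averaged 243 and 665 CPM. None of 8 endothelial markers was called in exactTest. An unadjusted p below 0.05 was found for 5 of them, where 7.85% of all genes tested lay below that value. The 8 markers summed to 168 to 179 against 218 to 726 CPM. These 3 sums lay higher in every TIC sample than in every sample of other tumor cells. The sum of the ligands did so too, at 8609 to 9087 against 16175 to 18852 CPM. Of single genes, 7.69% of all tested showed this separation, Itga11 and Itga1 among them. The luminal sums given above lay lower in every TIC sample. The part of these cell types in the values of the integrin chains was not tested. Among the leukocyte markers, Cd3e and Adgre1 had no count in any sample. Of the 4 tested, Lyz2 was called higher in TICs (log2 fold change 2.68, adjusted p = 0.012 in exactTest), while Cd52, Cd68 and Csf1r had log2 fold changes of -0.20, -0.31 and -1.68, each with an adjusted p of 1. The median of these 4 was -0.26, and the leukocyte sums overlapped between the groups, at 25.5 to 44.1 CPM in other tumor cells and 32.1 to 93.2 CPM in TICs. Basal epithelial markers gave 0 calls among 5 tested, with overlapping sums of 450 to 1001 against 366 to 593 CPM. The 4 platelet genes were below the filter. Pf4 had 18 and 43 counts in TIC replicates 2 and 3, and Ppbp had 4 counts in replicate 1 of other tumor cells. The platelet integrin chain Itga2b had 28, 13 and 69 counts in other tumor cells and 159, 106 and 4 counts in TICs. The part of platelets in the Itga2 counts was not tested.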

How the data were processed

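Total RNA of sorted cells was sequenced on an Illumina instrument. According to the labels and the methods, the authors trimmed reads with Trimmomatic (version 0.32), aligned them to GRCm38 with STAR (version 2.4.0), removed reads that did not map uniquely with samtools (version 1.1) and assigned the rest to genes with HTSeq. What was deposited are raw counts, not normalized. The annotation release is not given in the sources used here. GENCODE M21 gave symbols, coordinates and exon lengths, and 40254 of 41388 genes had a symbol.

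Genes above 1 CPM in at least 3 samples were kept. TMM factors, common and tagwise dispersions and exactTest came from edgeR (version 4.0.16, R version 4.3.3), as the methods name exactTest, with Benjamini-Hochberg adjustment over 12192 genes and a threshold of 0.1. The CPM value of the filter is not stated in the methods. Standard errors and 95% intervals rest on the tagwise dispersions of that fit. Within-sample ratios had 1 count added to both genes. Library depths of 6781239 to 9100552 counts set the floor of 3 counts. Replicates are pools of separate sorts, numbered in the order of the samples. Alternatives were the quasi-likelihood test, DESeq2 (version 1.42.0), other scalings, filters and dispersions, a threshold of 0.05 and each sample left out in turn. A single set of simulated counts with known changes was drawn with the dispersions of the exactTest fit. On it the fits recovered the size of the changes, but in all 3 tests the share of false calls exceeded the threshold. The share was largest in DESeq2, but counts drawn from the exactTest fit cannot rank the tests.

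All 10 chains are named. Of the 3 related lists, called genes and the 3 smallest p-values are named, and further ligands, adaptors and family members were picked for their roles after their values were seen. The chains and lists were chosen with earlier results of these data known.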

Additional observations from a re-analysis of the deposited data

How the results depend on the processing

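Over the alternative settings of the 9 chains, 118 log2 fold changes kept their direction and side of the threshold and 3 did not. Part of this agreement was fixed in advance. The threshold of 0.05 reused the main fit, in which no chain was below 0.1. The quasi-likelihood and trended-dispersion fits gave the log2 fold changes of the main fit, so that only their p-values could differ. The 3 exceptions were Itga11, called by DESeq2 (log2 fold change 3.48), Itga3 without TIC replicate 3 (-0.97) and Itgb1 without TIC replicate 1 (-0.35). The cause was not tested. Requiring 10 counts in each of the samples left out Itga1, Itga11, Itga3, Itga5 and Itgb6. DESeq2 called 1 chain, every other setting 0. With each sample left out, log2 fold changes ranged from 1.84 to 3.46 for Itga1, 3.13 to 4.07 for Itga11, -0.97 to 0.78 for Itga3, 1.0 to 2.68 for Itga5, -0.91 to -0.13 for Itga8, -0.45 to -0.02 for Itgav, -0.35 to 0.32 for Itgb1, 0.04 to 0.42 for Itgb5 and 0.48 to 2.11 for Itgb6. The ratio differences ranged from 0.29 to 3.54 for Itgb6 to Itgb5, -3.97 to 0.04 for Itga2 to Itga1 (where Itga2 is mostly at 0 counts; its sign turned to 0.04 without replicate 3 of other tumor cells) and -4.13 to -2.09 for Itga3 to Itga5. Over all genes, 189 were called in the main comparison, 50 by the quasi-likelihood test, 306 by DESeq2, 112 without the filter, 116 at an adjusted p below 0.05 and 72 to 323 with a sample left out (fewest without replicate 3 of other tumor cells, most without TIC replicate 1). Of the ligands the quasi-likelihood test called 7, and the fits without a sample 7 to 13 (7 without any of the replicates of other tumor cells, 13 without TIC replicate 1). The single adaptor call became 0 in the quasi-likelihood test, with library size alone, without the filter and at the threshold of 0.05, and 0 to 2 with a sample left out. No paired analysis was possible because the labels give the groups no shared replicate numbers. Intervals are widest for Itga3, Itgb6, Itga11, Itga5 and Itga1 among the 9 chains, and the parts of depth and of spread between samples in their width were not separated.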

Other observations

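Some core adhesion genes had few or no counts. Ilk, the gene of integrin-linked kinase, had 0 counts in all 6 samples, and 89.7% of its exon bases also belong to genes on the other strand (Rrp8 and Taf10) in GENCODE M21. Vcl, the gene of vinculin, had 35 counts in replicate 2 of other tumor cells, 3 in TIC replicate 2 and 0 elsewhere, with 25.5% of its exon bases shared with Ap3m1. Parvb, which shares no exon base with another gene, had 1 count in other tumor cells replicate 1, 18 and 9 counts in TIC replicates 2 and 3 and 0 in the others. None of these 3 genes was tested between the groups. The part of the overlaps in the missing counts was not tested.

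The genes whose log2 CPM profile over the 6 samples was closest to that of Itgb1 were Scx, Gm14586 and Zfand2a, with root mean square differences of 0.0778, 0.081 and 0.0854. For Itgav they were Rps3, Ndufa13 and Tubb5, at 0.0797, 0.0862 and 0.0863. With 6 samples and 12192 genes, such near matches describe these libraries only.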
